A study of Mus musculus with 4 samples.

Results

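Kcnq3 and Kcnq5, which encode pore-forming subunits of the neuronal M-current, were followed across the nuclei of adult mouse cortex. They are 2 of the 32285 genes in the count matrices and were taken by their symbols. The nuclei came from wild-type (WT) C57BL/6J mice that had received saline or risperidone, an antipsychotic that blocks dopamine and serotonin receptors. Injections were daily and intraperitoneal, at 4 mg/kg for risperidone, starting at postnatal day (PND) 22 and lasting 21 days. The mice were killed at PND 90 after a drug-free period. Right hemicortices from 5 males and 5 females per condition were combined into 1 pool before the nuclei were isolated, and the pool was run on 2 Chromium lanes, so each condition was 1 sample measured on 2 technical lanes. No test between conditions was possible, and the 95% intervals given below are exact and cover counting error only, not the spread between mice.

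The M-current is a slow potassium current that opens below the spike threshold and does not inactivate, and it holds back repetitive firing. Its channels are tetramers of KCNQ (Kv7) subunits, in which Kcnq3 and Kcnq5 subunits can be combined with each other or with other family members. The channels need the membrane lipid PIP2 to open and carry bound calmodulin, and they close when acetylcholine acts on Gq-coupled muscarinic receptors that activate phospholipase C. Ankyrin-G, the product of Ank3, anchors KCNQ channels at the axon initial segment, where spikes start.

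Both genes are long and lie on the minus strand of GRCm38. In GENCODE vM21, Kcnq3 (ENSMUSG00000056258) spans chr15:65986387-66286642, which is 300.3 kb, and Kcnq5 (ENSMUSG00000028033) spans chr1:21398403-21961942, which is 564 kb. Reads in introns were counted, so a longer gene offers more sequence to count. The longest exact run shared by any spliced transcript of Kcnq3 and any of Kcnq5 was 14 bases, against a read of 90 bases. Intron sequences were not compared. Kcnq3 overlaps 1 annotated gene, on the opposite strand, and Kcnq5 overlaps 4, of which 0 are among the counted genes.

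The deposited lanes held 23450 to 29986 nuclei and 119736937 to 203675013 unique molecular identifiers (UMIs). The median was 3297 and 4049 UMIs per nucleus for saline against 5648 and 7766 for risperidone, and the shallowest nucleus listed had 1364 and 1630 UMIs in saline but 500 in each risperidone lane. Any 2 lanes shared 160 to 221 barcodes. Nuclei were assigned to classes by the UMIs of marker genes that did not include either member, and 21 classes, made of 14 neuron types and 7 non-neuronal classes, were described. Genes kept out of the assignment supported 20 of the 21 names, by a single gene for the PV-IN-like, deep-layer IT-like, L5/6 NP-like and L6b-like nuclei. The exception was a group of 83 glutamatergic nuclei led by Fst, which was left without a type name. The genes kept out were compared with the median over the 21 classes, which does not by itself tell sister interneuron types apart. Tmem132c, kept out for the Sst type, was also among the leading genes of PV-IN-like nuclei. So were Adarb2, of the Vip type, in Lamp5-IN-like and Reln, of the Lamp5 type, in Sst-IN-like nuclei. A further 23670 glutamatergic and 3366 GABAergic nuclei had no type, and 52.4% and 47.9% of the saline nuclei, by lane, and 30.7% and 25.8% of the risperidone nuclei had no class. The tissue was labelled as cortex but also held 1654 nuclei with markers of striatal spiny projection neurons, and 894 claustrum-like nuclei.

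Both members were among the genes with the most UMIs, on a scale that takes no account of gene length. Kcnq3 gave 1626 and 1610.2 CPM (the gene's UMIs over all UMIs, times 1000000) in saline and 1229 and 1265 CPM in risperidone lanes, over all nuclei that passed the quality filter. Kcnq5 gave 2226 and 2273 CPM in saline and 2492 and 2538 CPM in risperidone lanes. Kcnq3 thus ranked between 79 and 104 among all genes of a lane and Kcnq5 between 43 and 55. The risperidone lanes lay below the saline lanes for Kcnq3 and above them for Kcnq5. Kcnq5 stood above 99.4% and Kcnq3 above 98.9% of the 7203 genes that averaged 10 CPM or more in glutamatergic neuron-like nuclei.

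Among neuron types, Kcnq3 was highest in intratelencephalic (IT) neurons of the deep layers and of L4/5, which project within the cerebral hemispheres. In deep-layer IT-like nuclei the Kcnq3 level was 2503 and 2453 in saline and 1895 and 1941 in risperidone lanes (CPM). It was 2396 and 2340.1 in saline and 1823 and 1887 in risperidone lanes in L4/5 IT-like nuclei. These ranges overlapped, and both lay above the L2/3 IT-like nuclei, at 1466 and 1434 in saline and 1123 and 1133 in risperidone lanes. In every lane the deep-layer IT-like level was 1.69 to 1.71 times the L2/3 IT-like level. Claustrum-like nuclei followed at 1623 to 2134 CPM over the 4 lanes. L6 corticothalamic (CT)-like nuclei at 947 to 1211 CPM, L6b-like nuclei at 945 to 1384 CPM and L5 extratelencephalic (ET)-like nuclei at 907 to 1263 CPM, the last of which project below the cortex, were lower and overlapped each other. The lowest neuron types were Lamp5 interneuron (IN)-like nuclei at 644 to 856 CPM and Vip-IN-like nuclei at 578 to 772 CPM. When all 21 classes were ordered by their mean over the lanes, 19 of the 20 neighbouring pairs overlapped in Kcnq3, and the exception lay between Vip-IN-like and mural-like nuclei.

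Kcnq5 had a different order, with a wide gap in it. Of the 14 neuron types, 9 had 2249 CPM or more of Kcnq5 in every lane, and the other 5, which were PV-IN-like, Sst-IN-like, L6 CT-like, L6b-like and the Fst-led nuclei, had 1579 CPM or less in every lane. Striatal spiny projection neuron-like nuclei had 3083 and 3194 in saline and 3004 and 3285 in risperidone lanes (CPM of Kcnq5). RNA of other cells would give 1111 and 1174 CPM in saline and 1404 and 2073 CPM in risperidone lanes there. Deep-layer IT-like nuclei had 2939 and 2992 in saline and 3274 and 3278 in risperidone lanes. L2/3 IT-like nuclei had 2923 and 3055 in saline and 3103 and 3110.2 in risperidone lanes. These types overlapped at the top of the order, whereas L6 CT-like nuclei had 908 and 883 in saline and 824 and 843 in risperidone lanes. The Kcnq5 level of deep-layer IT-like nuclei was 3.24 to 3.97 times that of L6 CT-like nuclei in each lane, against 1.95 to 2.13 times for the Kcnq3 level. Within the order of Kcnq5, too, 19 of 20 neighbouring pairs overlapped, and the gap lay between claustrum-like and Fst-led nuclei. L6b-like nuclei were few, and saline lane 1, with 23 of them, stood at 1187 CPM of Kcnq5 while the other lanes had 394 to 517 CPM.

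**Figure D1:**
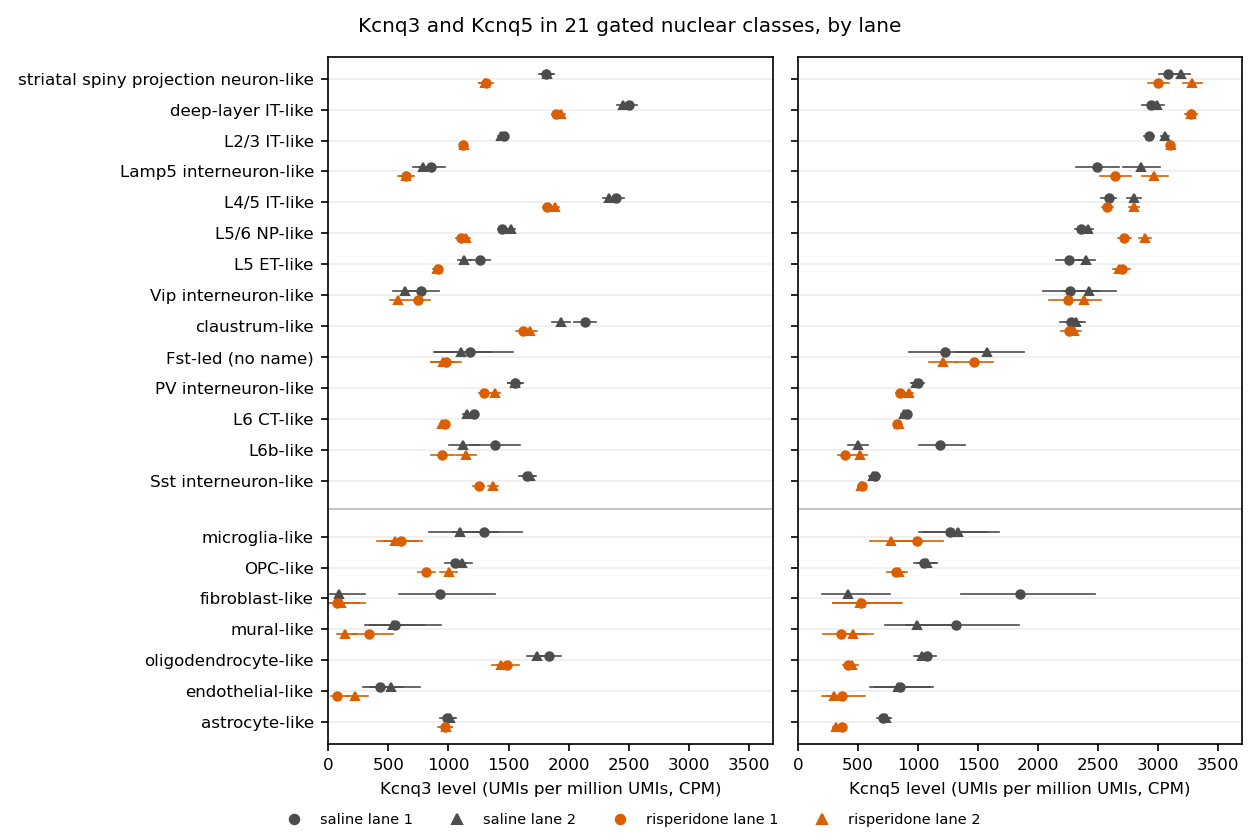
Level of Kcnq3 (left) and Kcnq5 (right) in CPM, for 14 neuron types above the line and 7 non-neuronal classes below it, each ordered by the mean Kcnq5 level. Each symbol is 1 lane with its exact 95% Poisson interval, and the Kcnq5 panel shows 9 neuron types at 2249 CPM or more and 5 at 1579 CPM or less.

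Inhibitory interneurons divided along this gap, with the members in opposite order. PV-INs fire fast and target cell bodies, Sst-INs target dendrites, Vip-INs mainly inhibit other interneurons, and Lamp5-INs include neurogliaform cells. Kcnq5 in Sst-IN-like nuclei was 642 and 627 in saline and 537 and 524 in risperidone lanes (CPM). In Lamp5-IN-like nuclei it was 2492 and 2859 in saline and 2644 and 2971 in risperidone lanes. The Kcnq5 level of the Vip and Lamp5 types, taken as their mean, was 2.91 to 3.69 times that of the PV and Sst types in each lane. The Kcnq3 level went the other way and was 1.84 to 2.26 times as high in the PV and Sst types. In PV-IN-like nuclei Kcnq3 was 1557 and 1553 in saline and 1297 and 1389 in risperidone lanes (CPM). Kcnq5 in them was 997 and 986 in saline and 851 and 926 in risperidone lanes, so their lanes were higher in Kcnq3 than in Kcnq5 even though Kcnq5 is the longer gene.

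The share of Kcnq5 in the summed UMIs of both members, which does not depend on how lanes are scaled, put these differences on 1 axis. It was 28.0% and 27.2% in saline and 30.0% and 27.7% in risperidone lanes for Sst-IN-like nuclei. In Lamp5-IN-like nuclei it was 74.4% and 78.4% in saline and 80.4% and 82.2% in risperidone lanes. PV-IN-like nuclei had 39.0% and 38.8% in saline and 39.6% and 40.0% in risperidone lanes, and their range overlapped that of L6b-like nuclei but not that of L6 CT-like nuclei, which had 42.8% and 43.4% in saline and 45.9% and 47.1% in risperidone lanes. All 4 lanes of the other neuron types lay at 51.6% or more, or, for the Fst-led nuclei, at 50.9% or more. Per length of gene the members were closer. The mean over lanes in glutamatergic neuron-like nuclei was 499 CPM per 100 kb for Kcnq3 and 479 CPM per 100 kb for Kcnq5, but the order turned between the pools, with Kcnq5 at 0.817 times Kcnq3 in saline and 1.14 times in risperidone. On that scale Kcnq3 was higher in all 4 lanes in 12 of the 21 classes, among them deep-layer IT-like, L4/5 IT-like, L6 CT-like, PV-IN-like and Sst-IN-like nuclei, and Kcnq5 in 4, which were L2/3 IT-like, Vip-IN-like, Lamp5-IN-like and fibroblast-like nuclei. In Sst-IN-like nuclei Kcnq5 per length was 0.199 to 0.229 times Kcnq3, and in Lamp5-IN-like nuclei 1.55 to 2.46 times.

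**Figure D2:**
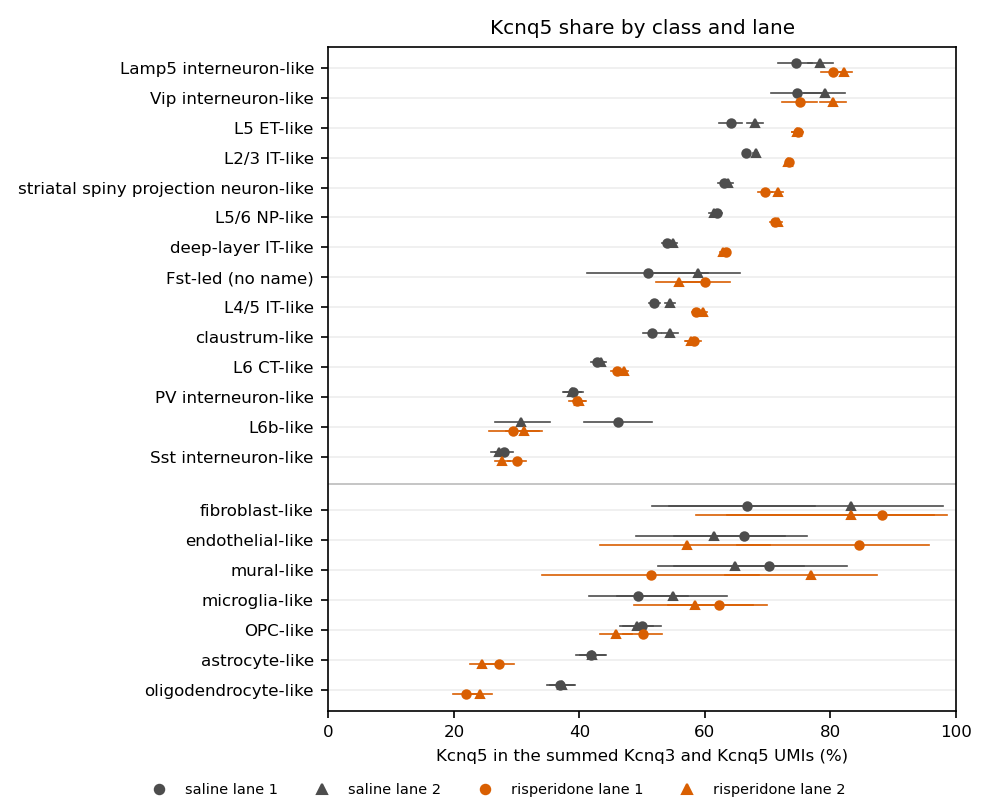
Kcnq5 as a percentage of the summed Kcnq3 and Kcnq5 UMIs, for 14 neuron types above the line and 7 non-neuronal classes below it. Each symbol is 1 lane with its exact 95% binomial interval, and the saline lanes of the neuron types run from 27.2% in Sst-IN-like to 79.1% in Vip-IN-like nuclei.

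Droplets also capture RNA that leaked from other cells, so levels in classes with few Kcnq UMIs were set beside an upper estimate of that RNA. The estimate is the level of genes that the class should lack (Camk2a and Nrgn for non-neuronal classes, and 6 genes of astrocytes and the oligodendrocyte lineage for neurons), relative to their mean in the lane. It takes the leaked RNA to have the lane's mean composition. As a share of the UMIs of oligodendrocyte-like nuclei it came to 47.0% and 34.9% in saline and 22.2% and 23.1% in risperidone lanes. Kcnq3 there was 1835 and 1738 in saline and 1491 and 1434 in risperidone lanes (CPM), where leaked RNA would give 764 and 561 CPM in saline and 273 and 292 CPM in risperidone lanes. Kcnq5 there was 1073 and 1030.4 in saline and 419 and 455 in risperidone lanes, where it would give 1045 and 792 CPM in saline and 554 and 586 CPM in risperidone lanes. Oligodendrocyte-like nuclei, the myelin-forming cells, thus lay above the estimate in Kcnq3 in every lane, and their Kcnq5 lay below it in both risperidone lanes. In astrocyte-like nuclei Kcnq3 was 989 and 1009 in saline and 971 and 980.2 in risperidone lanes (CPM), above its estimate of 487 and 443 CPM in saline and 249 and 214 CPM in risperidone lanes. Kcnq5 there was 710.5 and 732 in saline and 364 and 317 in risperidone lanes, against an estimate of 667 and 625 CPM in saline and 505 and 429 CPM in risperidone lanes. In OPC-like nuclei, the precursors of oligodendrocytes, Kcnq3 was 813 to 1113 CPM and Kcnq5 815 to 1076 CPM, all above the estimates. Endothelial-like, mural-like and fibroblast-like nuclei had 30 to 83 Kcnq3 UMIs and 86 to 152 Kcnq5 UMIs over the 4 lanes. Kcnq3 lay below the estimate in all 4 lanes of endothelial-like nuclei, and the other values of these classes lay on both sides of it.

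For neurons the same estimate limits the reading of low levels. For Kcnq5 in Sst-IN-like nuclei leaked RNA would give 819 and 749 CPM in saline and 697 and 870.4 CPM in risperidone lanes, which is above the level measured in every lane, so the estimate was too high there and no Kcnq5 level of their own could be told apart from it. In PV-IN-like nuclei it would give 890.1 and 950.2 CPM in saline and 727 and 819 CPM in risperidone lanes, just below the levels measured. Kcnq3 in both types stood well above its estimate, which was 598 and 530.4 CPM in saline and 344 and 434 CPM in risperidone lanes in Sst-IN-like nuclei. In Vip-IN-like nuclei Kcnq3, at 772 and 639.7 in saline and 742 and 578 in risperidone lanes (CPM), was set against 1428 and 637 CPM in saline and 639 and 321 CPM in risperidone lanes, and in Lamp5-IN-like nuclei, at 856 and 787 in saline and 645 and 644 in risperidone lanes, against 395 and 654 CPM in saline and 537 and 339 CPM in risperidone lanes, so the Kcnq3 contrast between interneuron types is limited too. L6b-like nuclei had 1187 and 498 in saline and 394 and 517 in risperidone lanes of Kcnq5 against 963 and 602 CPM in saline and 323 and 514 CPM in risperidone lanes. Kcnq5 in Lamp5-IN-like nuclei was well above its value, with an estimate of 541 and 923 CPM in saline and 1089 and 679.7 CPM in risperidone lanes.

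Nuclei were then compared at 1 depth, by drawing 1000 UMIs from each at random and leaving out shallower nuclei. That removed none of the saline nuclei with a class and 5 of the 25396 glutamatergic neuron-like nuclei of the risperidone pool, but 293 of the 1026 oligodendrocyte-like nuclei. In the saline pool 89.7% of deep-layer IT-like nuclei had a Kcnq3 UMI and 89.9% a Kcnq5 UMI, from 99.4% and 99.7% before drawing, and 80.5% had both. Of Sst-IN-like nuclei 74.6% had a Kcnq3 UMI, 45.0% a Kcnq5 UMI and 35.2% both. Of Lamp5-IN-like nuclei 50.9% had a Kcnq3 UMI and 87.7% a Kcnq5 UMI. For comparison, endothelial-like nuclei had 27.3% with Kcnq3 and 49.1% with Kcnq5 among 55 saline nuclei, at a median of 1909 UMIs against 4184 in Sst-IN-like nuclei. Their saline Kcnq5 level, 847 and 835 CPM, was above the 833 and 748 CPM that leaked RNA would give, so it need not be background alone. The percentage of Sst-IN-like nuclei with Kcnq5 (41.5% to 48.6%, exact 95% interval) lay within the interval of endothelial-like nuclei (35.4% to 62.9%). Those of PV-IN-like (52.3% to 59.9%) and L6 CT-like nuclei (51.3% to 55.6%) lay within it too. With 55 endothelial-like nuclei that interval is wide, so lying within it does not show that the types are alike. For Kcnq3 the percentage of Sst-IN-like nuclei lay above that of endothelial-like nuclei.

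Within a class the members were found together about as often as their single shares give. In the 30 class and pool combinations with at least 100 nuclei drawn, the share of nuclei with both differed from the product of the single shares by -2.85 to 1.90 percentage points. The variance over nuclei was 1.08 to 1.50 times the mean for Kcnq3 and 1.20 to 2.29 times for Kcnq5 across neuron types, where counting alone gives a value near 1.

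**Figure D3:**
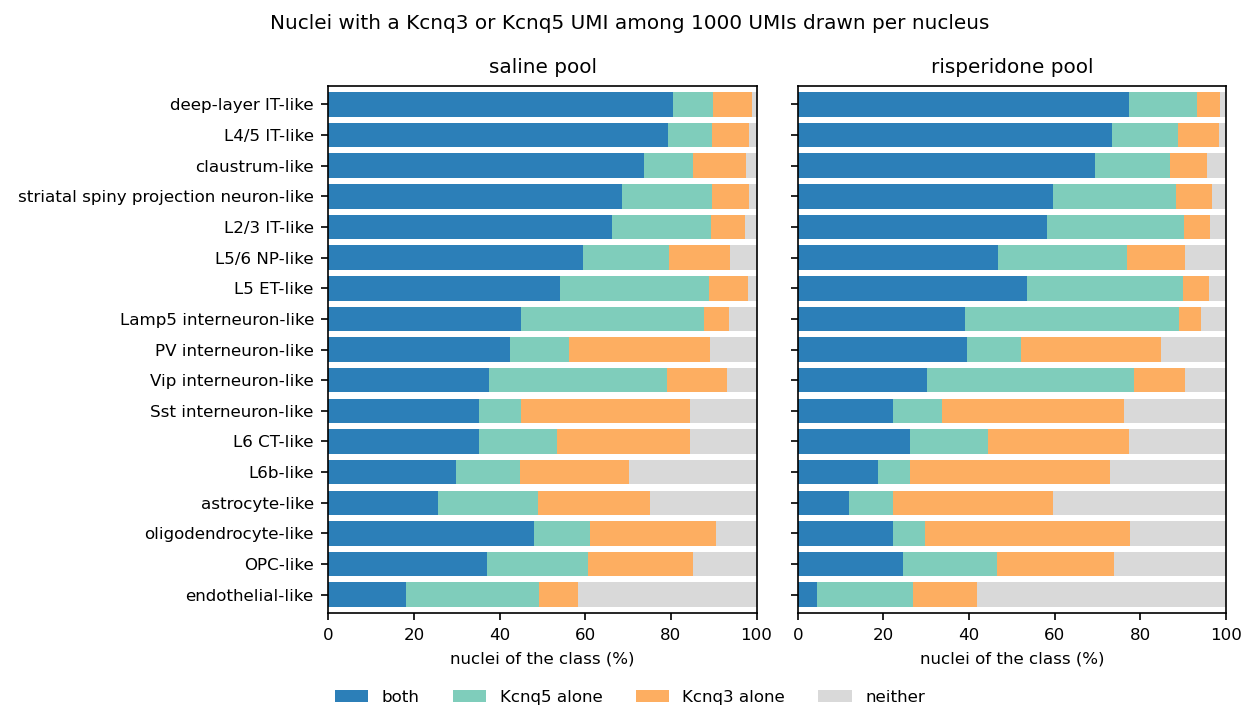
Percentage of nuclei with a UMI of both members, of 1 of them or of neither, after 1000 UMIs were drawn per nucleus, for classes with at least 50 nuclei drawn in each pool. In the saline pool both were found in 80.5% of deep-layer IT-like and 35.2% of Sst-IN-like nuclei, and in the risperidone pool in 77.4% and 22.1%.

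The comparison of the pools asked whether the channel genes differed after the adolescent treatment. Kcnq3 was lower in the risperidone pool in nearly every neuron type. Over all glutamatergic neuron-like nuclei its level was 1693 and 1687 in saline and 1293 and 1324 in risperidone lanes (CPM), and the risperidone lanes lay below the saline lanes. With lanes scaled by TMM (trimmed mean of M-values) factors, which set the bulk of genes equal between lanes, the log2 ratio of risperidone to saline was -0.45 (95% interval -0.46 to -0.44), with a range of -0.49 to -0.42 over the 4 pairs of lanes. PV-IN-like nuclei had a log2 ratio of -0.29 (95% interval -0.34 to -0.23) and Sst-IN-like nuclei, at 1654 and 1676 in saline and 1252 and 1369 in risperidone lanes, had -0.41 (95% interval -0.46 to -0.36). Separate lanes are common in these data: 46.9% of 7203 genes had both risperidone lanes below both saline lanes in glutamatergic neuron-like nuclei, 31.8% in PV-IN-like and 33.0% in Sst-IN-like nuclei. The size of the Kcnq3 ratio was less common, with 8.80% of genes below it in glutamatergic neuron-like, 21.8% in PV-IN-like and 12.2% in Sst-IN-like nuclei. It did not reach a log2 ratio of -0.5 in any of the 3 classes, a size that, with separate lanes, 6.58%, 8.14% and 7.47% of genes reached downward and 4.28%, 8.14% and 6.90% upward. Of the genes that reached it in glutamatergic neuron-like nuclei 39.4% were higher with TMM factors and 63.6% with plain CPM, and the corresponding values were 50.0% and 67.6% in PV-IN-like and 48.0% and 65.5% in Sst-IN-like nuclei. Kcnq3 was past that size in GABAergic neuron-like nuclei as a whole, with -0.55 (95% interval -0.57 to -0.52), where 7.49% of genes were past it downward, in GABAergic nuclei without a type, with -0.58 (95% interval -0.63 to -0.53), and in nuclei without a class, with -0.58 (95% interval -0.59 to -0.57). In the latter groups 6.44% and 8.91% of genes were past it downward. With plain CPM, a scaling added after seeing the data for these groups, the values were -0.43, -0.48 and -0.41 with separate lanes, none past the size. The mix of types in the first differed between the pools, with 1099 of 4346 saline and 555 of 4519 risperidone nuclei being spiny projection neuron-like.

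Across the 14 neuron types the risperidone lanes lay below the saline lanes for Kcnq3 in 11 and above in 0, where 28.6% of all genes, summed over the types, lay below (12.3% to 40.6% by type). The types came from the same pools and lanes, so the 11 are not separate results. The 28.6% is a share per type, and how many genes were lower in as many types was not counted. The log2 ratios of the 11 types ran from -0.53 in striatal spiny projection neuron-like nuclei to -0.29 in PV-IN-like nuclei. The first of these was -0.47 with plain CPM. Kcnq3 in these nuclei was 1809.9 and 1822 in saline and 1313 and 1305 in risperidone lanes (CPM). The share of UMIs estimated to come from other cells was 49.9% and 51.7% in saline and 56.3% and 81.7% in risperidone lanes, and would alone give 811 and 832 CPM in saline and 692 and 1033 CPM in risperidone lanes. L5/6 near-projecting (NP)-like nuclei, at 1447 and 1521 in saline and 1102 and 1148 in risperidone lanes (CPM), had -0.50 (95% interval -0.54 to -0.46). Deep-layer IT-like nuclei, where Kcnq3 was highest, had -0.45 (95% interval -0.48 to -0.42), and L6 CT-like nuclei -0.36 (95% interval -0.40 to -0.33). The lanes overlapped in Vip-IN-like nuclei, with -0.058 (95% interval -0.28 to 0.16), in L6b-like nuclei, with -0.098 (95% interval -0.25 to 0.058), and in the Fst-led nuclei, with 0.0057 (95% interval -0.26 to 0.28). Those 3 had the fewest nuclei among the neuron types. The Fst-led ratio was -0.24 with plain CPM and -0.15 with DESeq2 size factors, both with separate lanes downward. Its sign and the separation of its lanes thus depended on the scaling. The other 13 neuron types kept their sign in Kcnq3 with TMM, plain CPM and DESeq2 size factors.

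**Figure D4:**
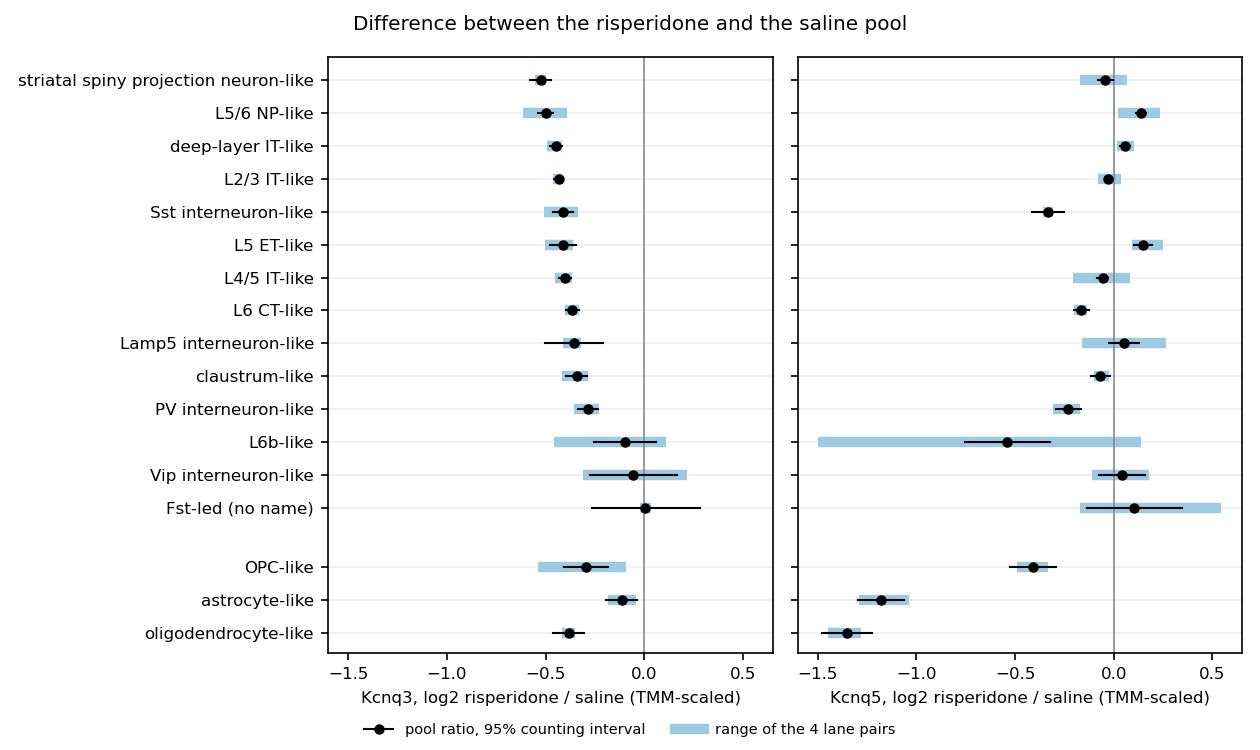
Log2 ratio of the risperidone to the saline pool for Kcnq3 (left) and Kcnq5 (right), for 14 neuron types and 3 glial classes. Dots are the ratios of the pools with exact 95% counting intervals and bars the range over the 4 pairs of lanes, and for Kcnq3 the bars of 11 neuron types lie wholly below 0 while for Kcnq5 4 lie below and 3 above.

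Long genes as a set had lower ratios than all genes. Among the 517 genes at least as long as Kcnq3 the median log2 ratio in glutamatergic neuron-like nuclei was -0.21, against -0.016 for all 7203 genes. Of those long genes 17.8% lay below Kcnq3 and 82.6% below Kcnq5. The corresponding medians were -0.21 in PV-IN-like and -0.18 in Sst-IN-like nuclei. In PV-IN-like nuclei 38.8% of the genes at least as long as Kcnq3 lay below Kcnq3 and 47.6% below Kcnq5. Both thus stood nearer the middle of that set there. In Sst-IN-like nuclei 17.3% of the set lay below Kcnq3 and 24.9% below Kcnq5. Kcnq5 is longer than Kcnq3 and was not ranked among genes of its own length. The part of gene length, and of the greater depth of the risperidone lanes, in the ratios was not tested.

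Kcnq5 had no common direction across neuron types. In glutamatergic neuron-like nuclei its level was 2548 and 2633 in saline and 2794 and 2821 in risperidone lanes (CPM), and the log2 ratio was 0.028 (95% interval 0.021 to 0.034), with lane pairs on both sides of 0 (-0.021 to 0.083). With plain CPM it was 0.11 and the lanes were separate. It was higher in all 4 pairs of lanes in L5 ET-like nuclei, at 2255 and 2398 in saline and 2700.3 and 2672 in risperidone lanes, with a log2 ratio of 0.15 (95% interval 0.10 to 0.19). L5/6 NP-like nuclei had 0.14 (95% interval 0.11 to 0.16) and deep-layer IT-like nuclei 0.056 (95% interval 0.031 to 0.081), also with separate lanes. It was lower in all pairs in Sst-IN-like nuclei, with -0.33 (95% interval -0.41 to -0.25), in PV-IN-like nuclei, with -0.23 (95% interval -0.29 to -0.17), in L6 CT-like nuclei, with -0.16 (95% interval -0.20 to -0.13), and in claustrum-like nuclei, with -0.068 (95% interval -0.12 to -0.019), where plain CPM gave -0.0097 and overlapping lanes. The Sst-IN-like value was -0.55 without the tenth of nuclei with the most UMIs and -0.13 in male nuclei, whose lane pairs lay on both sides of 0 (-0.41 to 0.24). L6b-like nuclei had -0.54 (95% interval -0.75 to -0.32), but saline lane 2 stood between the risperidone lanes, so the difference rested on saline lane 1. Of the 14 neuron types 3 thus had separate lanes upward and 4 downward, where 30.1% of genes, summed over the types, were separate upward and 28.6% downward. L2/3 IT-like nuclei had -0.027 with overlapping lanes, but 0.049 with separate lanes upward with plain CPM. Sst-IN-like and PV-IN-like nuclei were also among the types with the lowest Kcnq5 levels, near the estimate of RNA from other cells. L6 CT-like nuclei were low too, but above their estimate of 636 and 595 CPM in saline and 639 and 628 CPM in risperidone lanes. With that estimate taken out the log2 ratio of Kcnq5 in PV-IN-like nuclei was 0.45, and in Sst-IN-like nuclei no value was left. The PV-IN-like value rests on a small remainder, so no direction is read from it. Its saline lanes had 997 and 986 CPM against an estimate of 890.1 and 950.2 CPM. The risperidone lanes had 851 and 926 CPM against 727 and 819 CPM.

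The Kcnq5 share was higher in the risperidone pool in most neuron types. It was 62.0% and 61.4% in saline and 71.2% and 71.6% in risperidone lanes for L5/6 NP-like nuclei, a difference of 9.77 percentage points between the pools. In deep-layer IT-like nuclei the share was 54.0% and 55.0% in saline and 63.3% and 62.8% in risperidone lanes. In L2/3 IT-like nuclei it was 66.6% and 68.1% in saline and 73.4% and 73.3% in risperidone lanes. For glutamatergic neuron-like nuclei as a whole the pools had 60.6% (95% interval 60.4% to 60.7%) and 68.2% (68.1% to 68.3%). Both risperidone lanes exceeded both saline lanes in 10 of the 14 neuron types and lay below them in 0. The share is a ratio of the members and is higher wherever Kcnq3 is lower and Kcnq5 level, so it carries the Kcnq3 difference and is no separate result. The types whose lanes overlapped were Sst-IN-like, Vip-IN-like, L6b-like and the Fst-led nuclei. In PV-IN-like nuclei the lanes were separate but the difference was 0.919 percentage points, and the intervals of the pools overlapped.

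In glia both members were lower in the risperidone lanes. Kcnq3 had a log2 ratio of -0.38 (95% interval -0.46 to -0.30) in oligodendrocyte-like, -0.29 (95% interval -0.41 to -0.18) in OPC-like and -0.11 (95% interval -0.19 to -0.034) in astrocyte-like nuclei. Kcnq5 had -1.35 (95% interval -1.48 to -1.22), -0.41 (95% interval -0.52 to -0.29) and -1.18 (95% interval -1.30 to -1.06) in the same order. Separate lanes downward were found for 31.2%, 24.5% and 30.9% of genes in these classes. In both risperidone lanes Kcnq5 lay below its estimate of leaked RNA in oligodendrocyte-like and astrocyte-like nuclei. Kcnq5 also had separate lanes downward in microglia-like, endothelial-like and mural-like nuclei, as had 18.0%, 16.2% and 13.1% of genes, but on 316, 152 and 137 Kcnq5 UMIs. Kcnq3 had separate lanes downward in them too, with -1.04 (95% interval -1.41 to -0.66), -1.45 (95% interval -2.16 to -0.77) and -1.18 (95% interval -1.93 to -0.45), on 248, 83 and 68 Kcnq3 UMIs. Their nuclei had a median of 2229, 1909 and 1879.5 UMIs in saline against 912.5, 979 and 938.5 in risperidone. Microglia-like Kcnq3 was 1300 and 1096 in saline and 603 and 554 in risperidone lanes (CPM). Leaked RNA would give 1062 and 1184 CPM in saline and 688 and 729 CPM in risperidone lanes. Endothelial-like Kcnq3 lay below its estimate in every lane. In microglia-like nuclei Kcnq5, at 1268 and 1333 in saline and 992 and 778 in risperidone lanes (CPM), lay below its estimate of 1453 and 1671 CPM in saline and 1396 and 1462 CPM in risperidone lanes in every lane. The estimate of RNA from other cells was lower in the risperidone lanes as well (30.0% and 27.5% in saline and 20.3% and 16.9% in risperidone lanes for astrocyte-like nuclei), and oligodendrocyte-like nuclei were shallower there, with a median of 1244 UMIs against 2020.0. With nuclei of at least 1630 UMIs alone, a choice made after seeing the data, the log2 ratio of Kcnq5 was -1.18 in oligodendrocyte-like, -0.41 in OPC-like and -1.09 in astrocyte-like nuclei. Under the same floor that of Kcnq3 was -0.70 in oligodendrocyte-like, -0.31 in OPC-like and -0.086 (95% interval -0.17 to 0.00035) in astrocyte-like nuclei, and with plain CPM and no floor the astrocyte-like value was -0.035.

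Each pool held mice of both sexes, and nuclei were called female by Xist or male by Y-linked UMIs. Of all nuclei 37.7% and 39.1% were called female in saline and 49.8% and 48.8% in risperidone lanes, 17.9% to 19.5% were called male and 31.5% to 44.4% had no call, so the called nuclei do not mirror the 5 males and 5 females of each pool. In female glutamatergic neuron-like nuclei Kcnq3 was 1745 and 1769 CPM in saline and 1258 and 1279.6 CPM in risperidone lanes, a log2 ratio of -0.56 (95% interval -0.57 to -0.55). In male nuclei it was 1615 and 1591 CPM in saline and 1332 and 1402 CPM in risperidone lanes, a log2 ratio of -0.29 (95% interval -0.31 to -0.27). Both sexes were lower in the risperidone lanes, and the interval of the female ratio lay below that of the male ratio. In PV-IN-like nuclei the female ratio was -0.39 (95% interval -0.48 to -0.31) and the male ratio 0.039 (95% interval -0.060 to 0.14), with 157 male saline and 222 male risperidone nuclei. In Sst-IN-like nuclei they were -0.55 (95% interval -0.63 to -0.48) and -0.18 (95% interval -0.28 to -0.071), with male lane pairs on both sides of 0 (-0.44 to 0.029). For Kcnq5 the sexes were close in glutamatergic neuron-like nuclei, at 0.048 (95% interval 0.038 to 0.058) and 0.038 (95% interval 0.025 to 0.051). The difference between the sexes was not tested, since each sex came from the same pools.

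The other genes of the M-current pathway were described from 33 genes of a list, of which 24 reached a mean of 10 CPM in glutamatergic neuron-like, 25 in PV-IN-like and 25 in Sst-IN-like nuclei. By a log2 ratio of at least 0.5 with separate lanes, 1 gene of the list passed upward and 1 downward in glutamatergic neuron-like nuclei. In PV-IN-like nuclei 1 passed upward and 4 downward, and in Sst-IN-like nuclei 1 and 2. Over all genes 4.28% passed upward and 6.58% downward in glutamatergic neuron-like, 8.14% and 8.14% in PV-IN-like and 6.90% and 7.47% in Sst-IN-like nuclei. The median log2 ratio of the list was -0.14, -0.22 and -0.20 in the 3 classes, beside -0.016, -0.0084 and -0.016 over all genes. Genes at least as long as Kcnq3 had medians of -0.21, -0.21 and -0.18 in these classes. The lengths of the listed genes were not taken into account.

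Of the receptors and transducers that close the channels, Chrm1, the muscarinic M1 receptor, was lower in all 3 classes. It had 67.0 and 67.8 CPM in saline and 41.6 and 39.6 CPM in risperidone lanes of glutamatergic neuron-like nuclei, a log2 ratio of -0.82 (95% interval -0.87 to -0.78). The ratio was -0.81 (95% interval -1.23 to -0.38) in PV-IN-like and -0.61 (95% interval -1.09 to -0.12) in Sst-IN-like nuclei, where its mean was 22.7 and 16.7 CPM. The estimated share of RNA of other cells was 40.0% and 41.8% in saline and 29.2% and 32.3% in risperidone lanes of PV-IN-like nuclei. In Sst-IN-like nuclei that share was 36.8% and 32.9% in saline and 28.0% and 34.3% in risperidone lanes. How much of the Chrm1 in these interneuron types came from other cells was not tested. Chrm3, a second Gq-coupled receptor, had -0.15, -0.26 and -0.12 in the 3 classes, and Chrm2, a Gi-coupled one, -0.13, 0.095 and -0.26. The G protein gene Gnaq had -0.14, -0.22 and -0.24. Plcb1, the phospholipase C that hydrolyses PIP2, was abundant at 2235 CPM in glutamatergic neuron-like nuclei and had -0.048 there. Gna11, a G protein close to Gnaq, was past the threshold downward in both interneuron types (-1.29 and -0.90) but at 12.6 and 13.4 CPM.

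Among the listed genes of calmodulin, channel anchoring, PIP2 and inositol phosphate enzymes, kinases and ubiquitylation, the directions were mixed. Calm2, which encodes calmodulin, had 74.0 and 74.6 CPM in saline and 155 and 148 CPM in risperidone lanes in glutamatergic neuron-like nuclei, and its log2 ratio was 0.94 (95% interval 0.91 to 0.98), the value past the threshold upward. It was 0.87 in PV-IN-like and 0.72 in Sst-IN-like nuclei. Calm3 had -0.046 in glutamatergic neuron-like nuclei. Ank3 had 2153 and 2143 CPM in saline and 1638 and 1641 CPM in risperidone lanes in glutamatergic neuron-like nuclei and a log2 ratio of -0.48 (95% interval -0.48 to -0.47), close to that of Kcnq3 in the same nuclei. Its ratios were -0.41 and -0.36 in the interneuron types, with separate lanes but under the threshold. Of the enzymes of PIP2 supply, Pi4ka had 0.24, Pip5k1a 0.20 and Pip5k1b -0.10 in glutamatergic neuron-like nuclei. Pip5k1c had -0.16 in glutamatergic neuron-like and -0.54 in PV-IN-like nuclei. Inpp5a, a phosphatase of inositol trisphosphate, had -0.40 and -0.53, and with Pip5k1c, Chrm1 and Gna11 made up the 4 downward calls in PV-IN-like nuclei. With plain CPM 2 of these remained, Chrm1 and Gna11. The kinase genes Prkca and Prkcb had -0.24 and -0.24 in glutamatergic neuron-like nuclei and Sgk1 -0.12. Csnk2a1 and Csnk2a2 had 0.20 and 0.25 there, and 0.30 and 0.36 in Sst-IN-like nuclei, all with separate lanes upward. In PV-IN-like nuclei they had 0.095 and 0.22 with overlapping lanes. Nedd4l, a ubiquitin ligase that acts on KCNQ channels, had -0.16 in glutamatergic neuron-like nuclei.

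**Figure D5:**
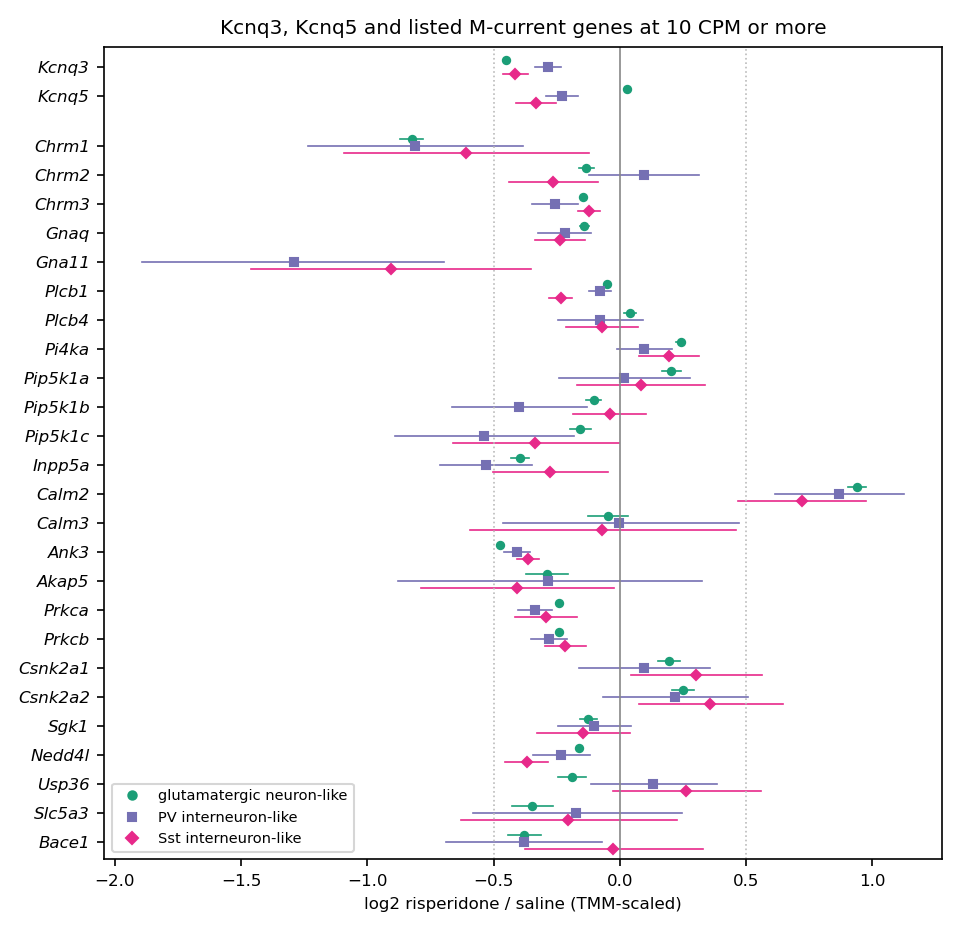
Log2 ratio of the risperidone to the saline pool, with exact 95% counting intervals, for Kcnq3, Kcnq5 and the genes of the M-current list with a mean of at least 10 CPM, in glutamatergic neuron-like, PV-IN-like and Sst-IN-like nuclei. Dotted lines mark a log2 ratio of 0.5 in each direction, past which Chrm1 lies downward and Calm2 upward in all 3 classes.

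The genes whose levels followed the members most closely were named by correlation of log2(CPM + 1) over the 21 classes in the saline lanes, among 13402 genes, as a description. For Kcnq5 they were Fstl4 (r = 0.886), Hs6st3 (0.809), Msra (0.802), the potassium channel gene Kcnh1 (0.749) and Iqcm (0.743). In the risperidone lanes the values were 0.898, 0.853, 0.879, 0.798 and 0.734. For Kcnq3 they were Fndc9, the corticotropin-releasing hormone receptor gene Crhr1, the diacylglycerol kinase gene Dgki, the carbonic anhydrase gene Car7 and Gm47715, with r from 0.812 to 0.851. Of these Dgki had 0.852 and Gm47715 0.697 in the risperidone lanes, while Crhr1 had 0.0748, Car7 0.185 and Fndc9 0.383. Fndc9, Crhr1, Car7 and Gm47715 peaked at 22.9 to 78.5 CPM in the saline lanes and were at 0 in some class. Over the 14 neuron types alone, r in the saline lanes was 0.544 to 0.634 for the genes named for Kcnq3. For those named for Kcnq5 it was 0.648 to 0.874. Between the members themselves r was 0.352 over the 21 classes and 0.131 over the 14 neuron types in the saline lanes. The classes of a lane share its depth and its leaked RNA, and small classes weigh as much as large ones in these correlations.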

How the data were processed

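DAPI-sorted nuclei were processed with GEM-X Universal Gene Expression v4. The authors deposited UMI counts per gene and nucleus, made with Cell Ranger 8.0.1 at default settings against mm10-2020-A, with reads in introns counted. Nuclei with fewer than 500 genes or over 5% mitochondrial UMIs were left out. The others were classified by a Poisson likelihood over 113 marker genes, with a posterior of at least 0.9, and nuclei with markers of 2 classes were dropped as likely doublets (3.25% to 4.10% per lane). UMIs were summed per class and lane and scaled by edgeR 4.0.16 TMM factors (R 4.3.3). Plain CPM and DESeq2 1.42.0 size factors were alternatives, along with a posterior of 0.999 (34.4% of classified nuclei fell under it), other minimum levels, lanes left out, each sex and the removal of RNA of other cells. Genes were counted as differing with a log2 ratio of at least 0.5, a mean of at least 10 CPM and separate lanes, and lists were described by counts. Intervals were exact Poisson, Clopper-Pearson or conditional binomial at 95%. Scripts ran in Python 3.11.15 and were checked on simulated data. Genes named are the members, the 5 most similar in saline level to each, and the pathway list, of which 3 genes are not reported here. Members and lists were chosen with earlier results of these data known, and gate thresholds were set after marker levels had been seen. Gene positions and transcripts came from GENCODE vM21 on GRCm38.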

Additional observations from a re-analysis of the deposited data

Results flagged for a closer look

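Kcnq5 went in opposite directions in different classes, with the lanes of the pools separate in each. Its log2 ratio of risperidone to saline was 0.056 in deep-layer IT-like, 0.15 in L5 ET-like and 0.14 in L5/6 NP-like nuclei. It was -0.16 in L6 CT-like, -0.068 in claustrum-like, -0.23 in PV-IN-like and -0.33 in Sst-IN-like nuclei. Among non-neuronal classes it was -1.18 in astrocyte-like, -1.35 in oligodendrocyte-like, -0.41 in OPC-like, -0.52 in microglia-like, -1.34 in endothelial-like and -1.20 in mural-like nuclei. In the same order 30.9%, 31.2%, 24.5%, 18.0%, 16.2% and 13.1% of genes had separate lanes downward. In both risperidone lanes Kcnq5 lay below the estimate of RNA of other cells in all of these classes but the OPC-like nuclei. The microglia-like, endothelial-like and mural-like values rest on 316, 152 and 137 Kcnq5 UMIs. Among neuron types 3 of 14 were upward and 4 of 14 downward, where 30.1% and 28.6% of genes were, so these counts are no more than the background. In claustrum-like nuclei plain CPM gave -0.0097 and overlapping lanes. In L2/3 IT-like nuclei it gave 0.049 and separate lanes upward, from -0.027 and overlapping lanes. Without RNA of other cells the PV-IN-like value was 0.45 and Sst-IN-like nuclei had none. The 0.45 rests on the small remainder above the estimate of that RNA, so no direction is read from it. The difference between the classes was not tested, since each condition was 1 pool.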

How the results depend on the processing

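The lower Kcnq3 level in glutamatergic neuron-like and Sst-IN-like nuclei kept its direction under every alternative run, and in PV-IN-like nuclei under all but 1. In glutamatergic neuron-like nuclei the log2 ratio was -0.37 with plain CPM, -0.47 with DESeq2 size factors, -0.44 with the stricter gate, -0.47 without the tenth of nuclei with the most UMIs, -0.56 in female nuclei, -0.29 in male nuclei, -0.38 with layer types weighted equally and -0.50 to -0.42 with each lane left out. In PV-IN-like nuclei it was -0.20 with plain CPM, -0.39 in female nuclei, 0.039, the opposite sign, in male nuclei, -0.20 without the estimated RNA of other cells and -0.34 to -0.25 with each lane left out. In Sst-IN-like nuclei it was -0.34 with plain CPM, -0.55 in female and -0.18 in male nuclei, and -0.51 to -0.34 with each lane left out.

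Kcnq5 in glutamatergic neuron-like nuclei lay near 0 and had no stable sign. Its log2 ratio was 0.11 with plain CPM, 0.0085 with DESeq2 size factors, 0.0071 with the stricter gate, 0.065 without the tenth of nuclei with the most UMIs, 0.048 in female nuclei, 0.038 in male nuclei, 0.0035 with layer types weighted equally, -0.0027 without RNA of other cells and -0.0049 to 0.068 with each lane left out. It was -0.0021 without saline lane 1 and -0.0049 without risperidone lane 2. In PV-IN-like nuclei it was -0.15 with plain CPM, -0.32 without the tenth of nuclei with the most UMIs, -0.17 in female and -0.35 in male nuclei, -0.30 to -0.19 with each lane left out and 0.45 without RNA of other cells. That last value rests on the small remainder above the estimate. In Sst-IN-like nuclei it was -0.55 without the tenth of nuclei with the most UMIs, -0.13 in male nuclei and -0.35 to -0.32 with each lane left out. Neither the Kcnq5 ratio nor the share in Sst-IN-like nuclei has a value without RNA of other cells, since that estimate exceeded the UMIs counted.

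The Kcnq5 share in glutamatergic neuron-like nuclei was higher in the risperidone pool by 7.06 percentage points with the stricter gate, 7.13 without RNA of other cells and 7.23 to 8.12 with each lane left out. In PV-IN-like nuclei it was 3.55 without RNA of other cells and 0.683 to 1.07 with each lane left out, and in Sst-IN-like nuclei 0.152 to 2.49, with the highest value without risperidone lane 2. The value of 3.55 rests on the small Kcnq5 remainder above the estimate. With plain CPM the median of the M-current list was -0.057 in glutamatergic neuron-like, -0.13 in PV-IN-like and -0.13 in Sst-IN-like nuclei, beside 0.070, 0.075 and 0.059 over all genes, which this scaling moved by as much. With each lane left out it was -0.19 to -0.12 in glutamatergic neuron-like, -0.24 to -0.11 in PV-IN-like and -0.26 to -0.13 in Sst-IN-like nuclei, and it was -0.11 in PV-IN-like nuclei without saline lane 1 and -0.13 in Sst-IN-like nuclei without risperidone lane 1. The cause of these changes was not tested.

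The number of genes past the size threshold depended on the minimum level. In glutamatergic neuron-like nuclei 308 were higher, 1601 with a minimum of 1 CPM, 4884 with none and 499 with plain CPM, and 474 were lower, 1155, 3302 and 285 in the same order. In PV-IN-like nuclei 605 were higher, 2128 and 3205 with the 2 lower minimums and 840 with plain CPM, and 605 were lower, 1490, 1979 and, with plain CPM, 403. In Sst-IN-like nuclei 507 were higher, 2031, 2952 and, with plain CPM, 685, and 549 were lower, 1448, 2044 and, with plain CPM, 361.

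Of the levels per class, 39 of 42 moved by less than the spread over lanes with the stricter gate and 40 of 42 at 1000 UMIs per nucleus. No paired analysis was possible because each condition was 1 pool and no result came from a test. With 1 pool per condition, a difference between the pools and a difference between the conditions cannot be told apart. Low Kcnq5 levels in Sst-IN-like, PV-IN-like, oligodendrocyte-like and astrocyte-like nuclei lay near the estimate of RNA of other cells, and the smallest classes are limited by their number of nuclei.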
